A study of Mus musculus with 7 samples.

Results

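Binding of Oct1 was examined at 9 genes for small noncoding RNAs, namely Rn7sk, Rmrp, Rpph1, Rny1, Rny3, Rnu7, Rnu11, Rnu12 and Vaultrc5. They were named as a list of RNA genes of the class whose upstream elements are classical octamer targets, and the gene table used here held all 9 symbols among its 49939 genes on chromosomes 1 to 19, X and Y. A gene was counted as having a peak when the nearest edge of a listed peak lay within 1 kb of the gene, and the count was repeated for 5 kb. The data were chromatin immunoprecipitation followed by sequencing (ChIP-seq) from parental mouse embryonic stem cells (ESCs), a pluripotent line. Of 7 samples, 4 had a peak list: both factors were profiled in undifferentiated ESCs, and Oct1 also in cells differentiating towards mesoderm, at day 3 and day 6. The remaining 3 were inputs for these stages, not analysed here. Differentiation ran for 2 days with Bmp4 and then for 4 days with Rspo3 and LDN-193189, a BMP receptor inhibitor. All groups carried the parental genotype. Each group held 1 library, so there was no replicate error, no test between groups was possible and every difference between lists is a description of these libraries. The lists hold no expression values, so the labelled cell types could not be set against marker genes.

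Oct1, the product of Pou2f1, and Oct4, the product of Pou5f1, are POU-domain factors that recognise the octamer. Genes for spliceosomal and related RNAs, and the Pol III genes whose promoters lie outside the transcribed part, carry a distal element that often holds an octamer and a proximal element bound by the SNAPc complex. Oct1 bound at the distal element helps SNAPc to bind the proximal one. Rn7sk, Rmrp, Rpph1, Rny1 and Rny3 are Pol III genes of this kind, Rnu7, Rnu11 and Rnu12 are transcribed by Pol II from related promoters, and vault RNA genes such as Vaultrc5 use promoter elements inside the gene.

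The sequences beside 3 of the Pol III genes are shown because they lie under Oct1 peaks and hold octamer-like letters. None of the 9 genes had a window of its own in the RefSeq promoter table (250 bases before to 50 after a gene start, GRCm38.p6), so the windows are those of neighbouring genes that start beside them. They lie on the plus strand at chr9:78175664-78175963 (of C920006O11Rik, a lncRNA gene, with the window 31 bp from Rn7sk), chr4:43493115-43493414 (of Ccdc107, with the window 56 bp from Rmrp) and chr14:50807666-50807965 (of Parp2, with 106 bases of the window inside Rpph1). Capitals mark the match to ATGCAAAT on either strand, with at most 1 mismatch.
Rn7sk, window of C920006O11Rik: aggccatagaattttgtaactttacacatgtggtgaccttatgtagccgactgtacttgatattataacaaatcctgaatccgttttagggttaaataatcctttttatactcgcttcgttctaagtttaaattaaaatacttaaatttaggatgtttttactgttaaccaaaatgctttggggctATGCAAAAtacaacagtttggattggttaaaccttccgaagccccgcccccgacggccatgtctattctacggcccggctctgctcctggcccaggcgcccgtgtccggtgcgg
Rmrp, window of Ccdc107: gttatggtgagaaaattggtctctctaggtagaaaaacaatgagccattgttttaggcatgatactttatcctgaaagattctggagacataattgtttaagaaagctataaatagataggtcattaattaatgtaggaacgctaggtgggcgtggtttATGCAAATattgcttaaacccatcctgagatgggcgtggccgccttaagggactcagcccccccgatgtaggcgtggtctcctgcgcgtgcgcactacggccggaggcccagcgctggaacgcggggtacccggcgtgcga
Rpph1, window of Parp2: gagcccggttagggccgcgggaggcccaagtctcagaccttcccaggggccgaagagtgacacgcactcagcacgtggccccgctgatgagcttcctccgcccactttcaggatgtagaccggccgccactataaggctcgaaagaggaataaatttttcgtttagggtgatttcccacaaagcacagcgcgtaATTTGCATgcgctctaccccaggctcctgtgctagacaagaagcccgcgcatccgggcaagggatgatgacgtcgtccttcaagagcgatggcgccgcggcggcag

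The windows at Rmrp and Rpph1 held the octamer without a mismatch, on the plus strand beside Rmrp and on the minus strand beside Rpph1. That motif, searched on both strands, was present in 1.74% of all 32851 windows of the table. The window at Rn7sk held it with 1 mismatch. A match with at most 1 mismatch was present in 18.6% of all windows. Among windows overlapping an Oct1 peak it was present in 23.8% for ESCs, 12.4% for day 3 and 8.73% for day 6. The match began 217 bp outside Rn7sk, 215 bp outside Rmrp and 89 bp outside Rpph1, between the RNA gene and the start of its neighbour in each case. The distance from the match to the midpoint of the ESC Oct1 peak was 88 bp at Rn7sk, 87 bp at Rmrp and 38 bp at Rpph1. In the same order it was 63, 142 and 38 bp at day 3 and 98, 18 and 58 bp at day 6. TATAAA occurred in the window at Rn7sk (minus strand, 135 bp outside the gene) and at Rmrp (plus strand, 163 bp outside the gene). It was present in 13.6% of all windows. The palindromic octamer-related element (MORE) occurred in none of the 3 windows. The window of Grcc10, which covers Rnu7, held none of these motifs. It spans 124741020 to 124741319 and Rnu7 124741225 to 124741286, so it reaches little beyond the higher-coordinate end of Rnu7. Sequence further out on that side was not searched, so the absence does not describe both flanks of Rnu7. No window of the table overlapped the peaks at Rnu11 and Rnu12. A match of letters does not show a bound site.

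Oct1 peaks stood at 5 of the 9 genes in ESCs, at 6 at day 3 and at 4 at day 6, whereas an Oct4 peak stood at 1. In the same order, a peak lay within 1 kb of 16.3% (ESC Oct1), 10.4% (day 3), 18.4% (day 6) and 18.8% (ESC Oct4) of all 49939 genes. For 5 kb the counts were 5, 6 and 6 of 9 for Oct1 and 1 of 9 for Oct4, against 20.7%, 12.8%, 21.6% and 23.9% of all genes. The 9 genes are at most 345 bp long, and these shares were not matched for gene length. Among the 2796 other genes of the small RNA types (snRNA, snoRNA, tRNA and rarer ones), a peak within 1 kb was listed at 6.69% for ESC Oct1, 3.04% for day 3, 3.83% for day 6 and 6.72% for ESC Oct4. The Oct1 counts at the 9 genes thus lay above every one of these shares, and the Oct4 count of 1 of 9 (11.1%) lay between those of small RNA genes and of all genes.

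**Figure D1:**
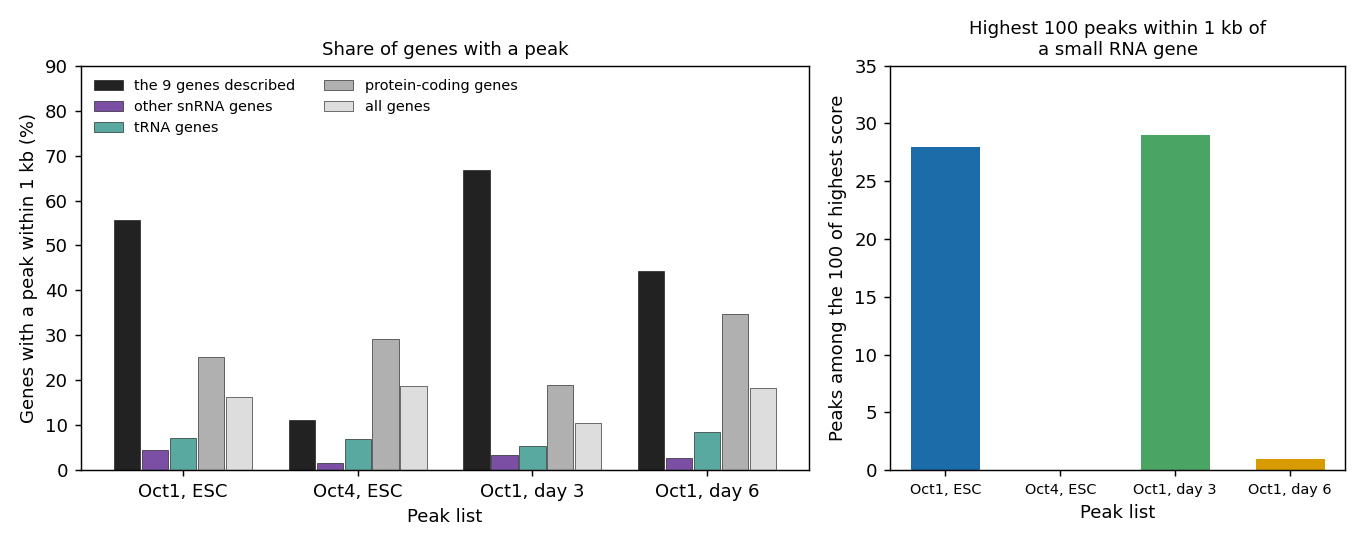
Left, percent of genes with a peak within 1 kb in each of the 4 peak lists, for the 9 genes described, other snRNA genes, tRNA genes, protein-coding genes and all genes. Right, number of the 100 highest-scoring peaks of each list within 1 kb of any small RNA gene. It was 28 for ESC Oct1, 29 for day 3, 1 for day 6 and 0 for ESC Oct4. Of the same peaks, 67, 72, 93 and 56, in that order, lay within 1 kb of a protein-coding gene (not drawn). Each list is 1 library, so there are no error bars.

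The strength of each peak was read from the authors' score, a whole number without a stated unit, only as a rank within its own list. Rank 1 is the highest score, tied scores share their mean rank, and the percentile is the share of the list with a lower score. The lists held 17709 peaks (ESC Oct1), 22817 (ESC Oct4), 4867 (day 3) and 7758 (day 6).

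Rn7sk (gene ID 19817; GRCm38 chromosome 9, 78175302 to 78175633) encodes 7SK RNA, which holds the elongation factor P-TEFb in an inactive complex. Its Oct1 peak scored 2679 in ESCs (rank 117, percentile 99.3), 2185 at day 3 (rank 95, percentile 98.1) and 608 at day 6 (rank 3293, percentile 57.6). The peak was therefore near the top of the list in ESCs and at day 3 and near the middle at day 6. The ESC peak spanned 78175281 to 78176250, and its midpoint lay 132 bp outside the gene. The nearest Oct4 peak was 114852 bp away.

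Rmrp (gene ID 19782; chromosome 4, 43492785 to 43493059) encodes the RNA of RNase MRP, an endonuclease of ribosomal RNA processing. Its Oct1 peak scored 2410 in ESCs (rank 130, percentile 99.3), 2774 at day 3 (rank 75, percentile 98.5) and 2191 at day 6 (rank 231, percentile 97.0). It was among the stronger peaks of all 3 Oct1 lists. The midpoint was 131 bp from Rmrp and 150 bp from the nearer end of Ccdc107 in ESCs, but 236 bp from Rmrp and 45 bp from Ccdc107 at day 6. In ESCs it spanned 43492811 to 43493570, and the nearest Oct4 peak was 45632 bp away.

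Rpph1 (gene ID 85029; chromosome 14, 50807447 to 50807771) encodes the RNA of RNase P, which trims the leader of precursor tRNAs, and stands 126 bp from Parp2, a DNA repair gene. Its Oct1 peak scored 5095 in ESCs (rank 70, percentile 99.6), 1840 at day 3 (rank 114, percentile 97.7) and 2050 at day 6 (rank 273, percentile 96.5). It stood in the upper 5% of each Oct1 list. It spanned 50807461 to 50808190 in ESCs, and the midpoints of the ESC and day 3 peaks coincided (0 bp apart). The nearest Oct4 peak was 28580 bp away.

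Rnu11 (gene ID 353373; chromosome 4, 132270079 to 132270186) encodes U11 RNA of the minor spliceosome, which recognises the start of a rare class of introns. Its ESC Oct1 peak had the highest score of the 9 genes, 8028 (rank 47, percentile 99.7), and spanned 132269971 to 132270800. At day 3 the score was 2285 (rank 92, percentile 98.1), and at day 6 no peak was listed within 1 kb. Rnu11 alone had an Oct4 peak, with a score of 112 (rank 15794.5, percentile 30.8), in the lower part of that list. The Oct4 peak lay wholly inside the Oct1 peak, sharing 560 bp with it. The peak that placed Rnu11 within 5 kb at day 6 was 3895 bp away, scored 755 (percentile 67.0) and had its midpoint 20 bp from an end of Taf12, which encodes a TFIID subunit.

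Rnu12 (gene ID 104307; chromosome 15, 83149645 to 83149794) encodes U12 RNA, which pairs with the branch site of the same class of introns. Its Oct1 peak scored 5221 in ESCs (rank 67, percentile 99.6), 2617 at day 3 (rank 78, percentile 98.4) and 1980 at day 6 (rank 306, percentile 96.1). All 3 ranks were high, but the position was not the same. The ESC peak spanned 83149131 to 83150040 and the day 3 peak 83149051 to 83150030, both over the gene, whereas the day 6 peak spanned 83148781 to 83149600 and ended 45 bp short of it. From ESCs to day 6 the midpoint moved by 395 bp towards and into Poldip3, whose nearer end lies 267 bp from Rnu12. In the other 3 genes with a peak at both stages it moved by 10 to 105 bp. The day 6 midpoint was 455 bp from Rnu12 and 188 bp from the end of Poldip3, so this peak, like that at Rmrp, stood closer to the protein-coding gene.

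Rnu7 (gene ID 19866; chromosome 6, 124741225 to 124741286) encodes U7 RNA, which guides the cleavage of histone precursor mRNAs. It had an Oct1 peak in a single list, day 3, with a score of 1121 (rank 200, percentile 95.9), spanning 124740771 to 124741330. Its midpoint was 19 bp from an end of Grcc10, 156 bp from Rnu7, and 175 bp from Rnu7 itself, so the peak cannot be assigned to either gene by position. In ESCs the nearest Oct1 peak was 12795 bp away and of low score (53, percentile 9.57), and the nearest Oct4 peak was 5495 bp away (score 34). The day 6 peak that placed Rnu7 within 5 kb was 4165 bp away and nearest to an end of Atn1 (score 364, percentile 36.4).

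The remaining 3 genes had no peak within 5 kb in any list. Rny1 (gene ID 19872; chromosome 6, 47788070 to 47788180) and Rny3 (gene ID 19874; chromosome 6, 47781624 to 47781724) encode Y RNAs, the partners of the Ro60 protein, and stand 6346 bp apart, so they are 1 locus for this purpose. The peak nearest to both was 31451 bp from Rny1 for ESC Oct1 and 31521 bp for Oct4. The day 3 and day 6 peaks were 25121 bp and 24991 bp away. They had midpoints within 43 bp of an end of Pdia4, an endoplasmic reticulum chaperone gene, and the gene end nearest to the ESC peaks was that of the pseudogene Rpl35a-ps7. Vaultrc5 (gene ID 378472; chromosome 18, 36801763 to 36802107) encodes an RNA of the vault particle. Its nearest peaks, 7433 bp away for ESC Oct1, 7403 bp for Oct4 and 7443 bp for day 6, lay within 112 bp of an end of Zmat2, and the nearest day 3 peak was 520103 bp away. A gene without a listed peak may have binding below the authors' threshold, which is not given in the sources used here.

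**Figure D2:**
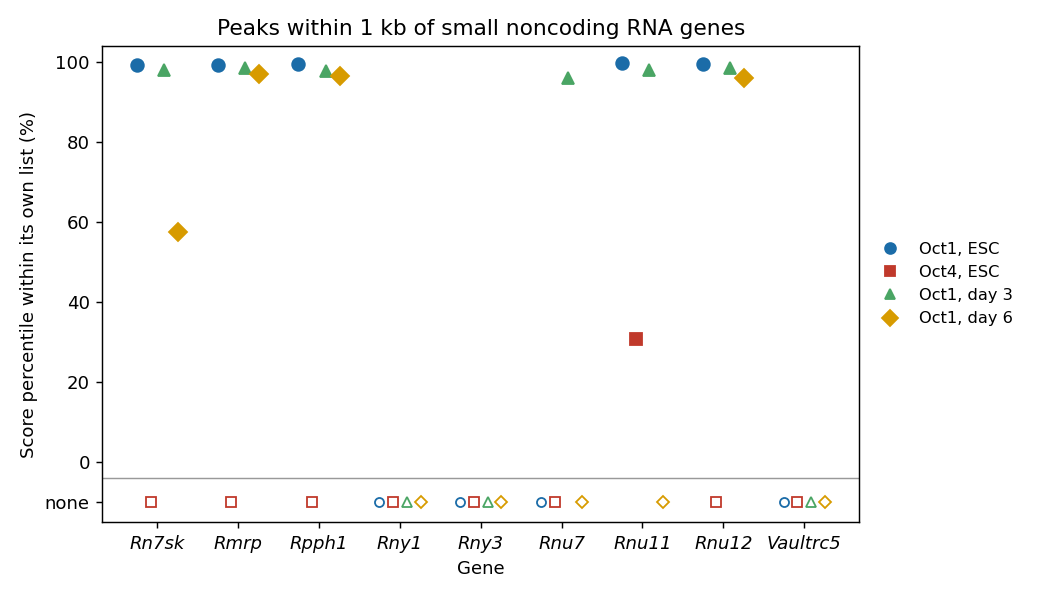
Score percentile, within its own list, of the Oct1 or Oct4 peak within 1 kb of each of the 9 genes; open symbols in the lowest row mark lists without such a peak. The ESC Oct1 peaks lie from 99.3 to 99.7 and the day 3 peaks from 95.9 to 98.5, while at day 6 Rn7sk lies at 57.6 and the other 3 from 96.1 to 97.0.

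Set side by side, the 5 ESC Oct1 peaks at these genes ranked between 47 and 130 of 17709, all inside the top 1%. The 6 day 3 peaks ranked between 75 and 200 of 4867, inside the top 5%. At day 6, 3 of 4 were inside the top 5%, but 1 of 4 (Rpph1) when peaks were ranked by score per bp of width, where Rmrp stood at percentile 93.4 and Rnu12 at 94.4. For comparison, the median percentile over all genes with a peak within 1 kb was 64.6 for ESC Oct1, 56.6 for day 3 and 55.8 for day 6. A percentile of at least 95 was reached by 10.1%, 6.03% and 5.79% of these genes. Among neighbours in the ESC order (Rnu11, Rnu12, Rpph1, Rn7sk, Rmrp), the scores of Rnu12 and Rpph1 (5221 and 5095) and of Rn7sk and Rmrp (2679 and 2410) were close, and without a replicate their order is not established.

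The Oct1 peaks of different lists lay over each other. All 5 ESC Oct1 peaks overlapped the day 3 peak of the same gene, and 4 overlapped a day 6 peak, Rnu11 being the exception. The share of all ESC Oct1 peaks that overlap a later peak was not counted, so these counts describe the named genes only. The overlap covered at least 94.8% of the ESC peak and at least 71.0% of the day 3 peak. At day 6 it covered 85.6% to 100% of the ESC peak at Rn7sk, Rmrp and Rpph1 and 51.6% at Rnu12. All 16 peaks within 1 kb of a member, the Oct4 peak included, had their midpoint outside the RNA gene, by 34 to 455 bp. These peaks stood at only 6 genes and are wider than the genes. The share of other short genes with a midpoint outside was not counted, so this describes the named genes only. At Rmrp, Rpph1, Rn7sk, Rnu7 and Rnu12 the midpoint lay on the side of the nearest neighbouring gene. At Rnu11 it lay on the other side, away from Gm28874, a lncRNA gene and the nearest neighbour there. The gene table gives no strand, so which side is upstream was not read from it.

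**Figure D3:**
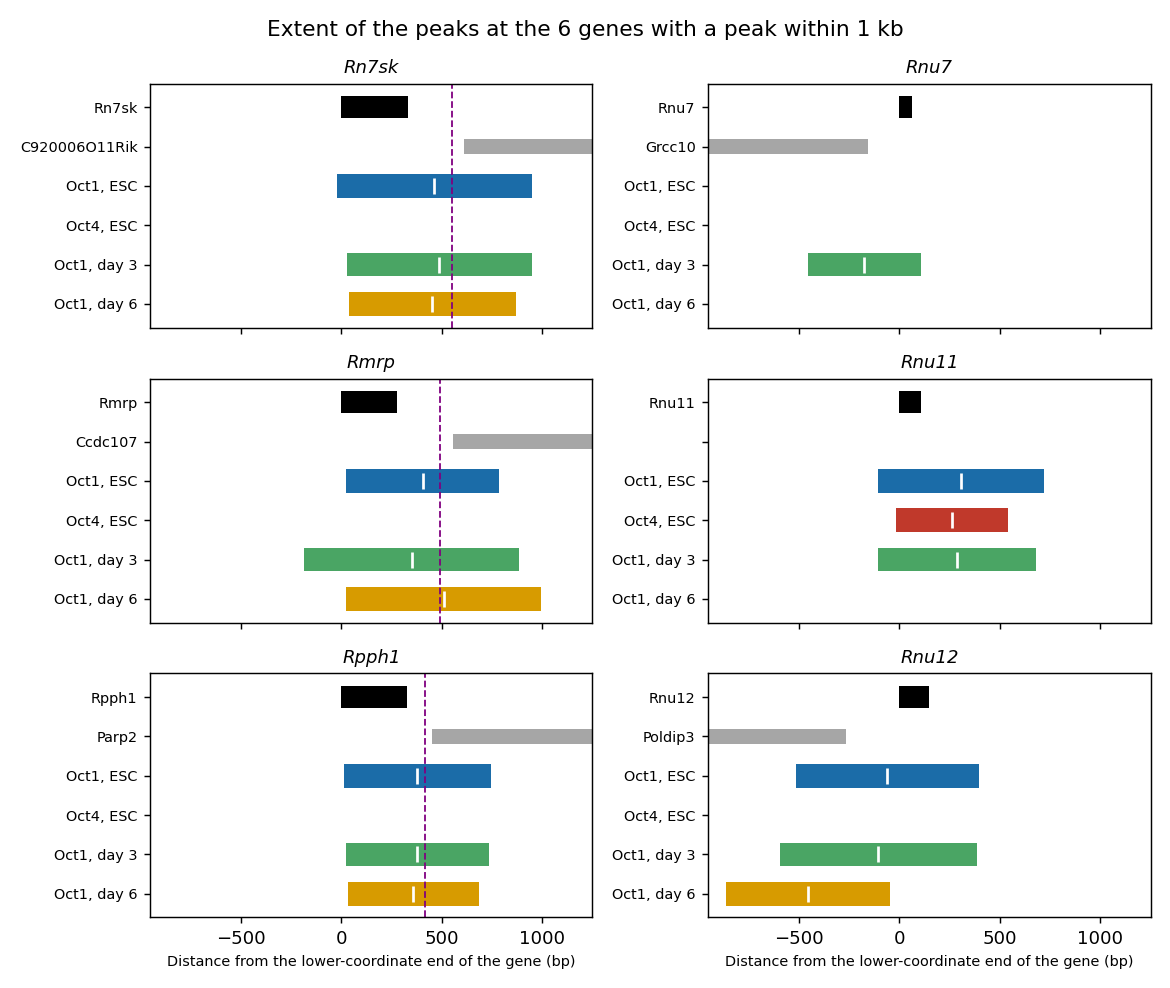
Peaks (coloured bars, white ticks at their midpoints) at the 6 genes with a peak within 1 kb, against distance in bp from the lower-coordinate end of the RNA gene (black); grey bars are neighbouring genes, cut at the edge of the panel, and dashed lines the octamer matches with at most 1 mismatch in the windows searched. The peaks of different lists overlie each other at Rn7sk, Rmrp and Rpph1, and the day 6 peak at Rnu12 is displaced by 395 bp from the ESC peak.

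Because Rmrp, Rpph1, Rnu7 and Rnu12 stand within 1 kb of a protein-coding gene but outside it, small RNA genes in the same position were counted as well. Of 86 such genes other than the members, 14.0% had an ESC Oct1 peak within 1 kb, 23.3% a day 3 peak, 38.4% a day 6 peak and 8.14% an ESC Oct4 peak. Of those 4 members, 3 had an ESC Oct1 peak, 4 a day 3 peak, 3 a day 6 peak and 0 an ESC Oct4 peak. With 4 genes, these counts are a description only.

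A further list of small RNA genes was read in the same way. Of 27 listed, 20 were in the gene table, and 6 had an ESC Oct1 peak within 1 kb, 7 a day 3 peak, 8 a day 6 peak and 1 an ESC Oct4 peak. Among all genes these shares were 16.3%, 10.4%, 18.4% and 18.8%. Rnu2-10, a gene for U2 RNA of the major spliceosome, had the strongest of them, with rank 15 in ESCs, 29 at day 3, 120 at day 6 and 166 among Oct4 peaks. The clustered genes Rnu3b1, Rnu3b2, Rnu3b3 and Rnu3b4, for the U3 RNA of ribosomal RNA processing, ranked from 57 to 72 in ESCs and from 48 to 61 at day 3. At day 6 their ranks were from 606.5 to 1084. Rnu1b1, a gene for U1 RNA, had a peak in ESCs (percentile 95.6) and at day 3 (92.5) and none within 5 kb at day 6. A peak at a later time without one in ESCs stood at 3 genes, named after their values were seen. Rn7s1, a gene for 7SL RNA of the signal recognition particle (percentile 63.4), and Bc1, a neuronal Pol III gene (81.7), had an Oct1 peak within 1 kb at day 6 alone, and Rn7s2, also for 7SL RNA, at day 3 (54.9) and day 6 (55.4). Near-identical copies such as the U1, U2 and U3 genes can share reads, so peaks at one copy are uncertain.

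Genes for proteins that work with these RNAs were counted against protein-coding genes. Of 30 such genes, 9 had an ESC Oct1 peak within 1 kb, against 25.3% of 21883 protein-coding genes. At day 3 it was 11 of 30 (36.7%, against 18.9% of protein-coding genes), and at day 6 it was 22 of 30 (73.3%, against 34.8%). ESC Oct4 peaks stood at 6 of 30, against 29.3%. Mepce, which caps 7SK RNA, had the strongest, with rank 94 in ESCs, 97 at day 3 and 22 at day 6. Hexim1, which inhibits P-TEFb within the 7SK complex, had a peak in all 4 lists (percentile 92.7 for ESC Oct1, 67.3 for Oct4, 60.2 at day 3 and 88.2 at day 6). Pop4, a subunit of RNases P and MRP, had one in ESCs (percentile 93.4) and at day 6 (20.4).

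Of 13 genes for factors that act at small RNA promoters, 4 had an ESC Oct1 peak within 1 kb (30.8%, against 25.3% of protein-coding genes). At day 3 and at day 6 it was 6 of 13 (46.2%, against 18.9% and 34.8%), and 3 had an ESC Oct4 peak (23.1%, against 29.3%). Zfp143, whose product binds the distal elements of many of these promoters, had an Oct1 peak with percentile 95.1 in ESCs, 69.0 at day 3 and 50.5 at day 6. Pou2f1, the gene of Oct1 itself and named after its values were seen, had Oct1 peaks with percentile 64.7 in ESCs, 89.4 at day 3 and 97.2 at day 6, and no Oct4 peak within 5 kb.

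Protein-coding genes with the most similar pattern were sought among those with peaks within 1 kb in the same lists, other than the peaks of the RNA gene itself. Likeness was the mean absolute difference of score percentile over those 3 lists. For Rmrp the closest of 337 genes were Dlx1 (0.180 percentile points), Fstl3 and Prss57 (both 0.219, at the same percentiles). For Rpph1 the closest was Poldip3 (0.394), whose peak is that of Rnu12, and for Rnu12 it was Parp2, whose peak is that of Rpph1, followed by Ahcy (0.423). For Rn7sk they were Alyref2 (2.14) and the histone genes H2ac6 and H2bc4 (both 3.90) among 338. For Rnu11, compared over ESC Oct1, ESC Oct4 and day 3, the closest of 409 genes was Pde8b (2.51).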

How the data were processed

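Per the labels' protocols, chromatin of parental mouse ESCs and of cells at day 3 and day 6 of mesodermal differentiation was crosslinked with 1% formaldehyde, immunoprecipitated for Oct1 or Oct4 and sequenced as paired reads of 50 bp, at a stated 100 M read pairs. The submitters' processing notes name Novoalign 3.8.2 and the build mm10, which is GRCm38. The peak caller, its threshold and the control are not given in the sources used here. Each deposited list came from 1 library and gave chromosome, start, end, name and a score, a whole number per peak set by the authors without a stated unit. Peak starts are in steps of 10 bp and no peak is narrower than 500 bp. The depth of each library is unknown, since the lists hold no read counts.

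Distances were computed in Python 3.11.15 (numpy 2.4.6, pandas 2.3.3) from the edge of a peak to the gene of the RefSeq table (GRCm38.p6), 1-based, for 1 kb and 5 kb, after a check on simulated peaks. The counts over all genes were identical with bedtools 2.31.1. Where several peaks lay in a window, the one of highest score was used. Figures were drawn with matplotlib 3.10.9. Scores were read only as ranks within a list. The members and gene lists were chosen with earlier results of these data known, and the background of small RNA genes next to protein-coding genes was added after the data were seen. Genes named besides the members were those nearest to a member's peak, at most 10 of the other lists by ESC Oct1 percentile, and the 3 most similar protein-coding genes per member, of which the text gives the closest. Rn7s1, Rn7s2, Bc1 and Pou2f1 fall outside this rule and were named after their values were seen. The alternatives were another measure of distance, other windows, fewer peaks, another rank and a stricter overlap. With 1 library per group, no test was made.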

Additional observations from a re-analysis of the deposited data

How the results depend on the processing

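The counts of genes with a peak and of shared peaks gave 40 alternative values, of which 35 stayed within 1.5 times the reported count, among them every one for the 3 Oct1 lists. Of the 5 others, all concerned Oct4. Day 3 is itself the shortest list, so taking as many peaks as the shortest list has repeated its counts and could not move them. With only the 50% of Oct4 peaks of higher score, or with as many Oct4 peaks as the shortest list has, 0 of 9 genes had one within 1 kb (against 11.8% and 6.04% of all genes) or within 5 kb (15.0% and 7.79%), because the single Oct4 peak at Rnu11 has a low score. With a window of 10 kb, 3 of 9 genes had one, and 14965 of all 49939 genes, a similar share. Ranking by score per bp of width moved the percentile of the day 6 peak at Rn7sk from 57.6 to 49.8 and that of the Oct4 peak at Rnu11 from 30.8 to 48.5. Of 32 alternative percentiles, those from the nearest peak could not move, because each of the 16 peaks was the only one within 1 kb of its gene. Moves were judged by a counting interval, which treats the reported percentile as a proportion of the peaks of its list. It is a yardstick only and measures no error of a peak's score. The 11 that moved beyond this interval all came from ranking by score per bp of width. The day 6 peaks at Rmrp (97.0 to 93.4) and Rnu12 (96.1 to 94.4) left the top 5% of their list when ranked this way, which left 1 of 4 there in place of 3, while the counts of 5 in ESCs and 6 at day 3 were the same. No paired analysis was possible because each group held 1 library and the labels give no replicate numbers. Depth and threshold are unknown, so a missing peak shows only that none was listed.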

Other observations

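The strongest Oct1 peaks of ESCs and of day 3 included many at other snRNA genes. Of the 1000 snRNA genes other than the members, 987 of which carry provisional symbols (Gm or LOC numbers), 44 had an ESC Oct1 peak within 1 kb (4.40%), 35 a day 3 peak (3.50%), 28 a day 6 peak (2.80%) and 15 an ESC Oct4 peak (1.50%). Where such a gene had an ESC Oct1 peak, the median score percentile was 99.6, the lowest being 0.359. At day 3 the median was 98.8 over 35 genes, at day 6 it was 89.5 over 28, and for Oct4 it was 83.8 over 15. Among the 100 highest-scoring peaks, 25 of ESC Oct1 and 26 of day 3 lay within 1 kb of an snRNA gene, the members included, against 1 at day 6 and 0 for Oct4. Of the same 100 peaks, 67 of ESC Oct1, 72 of day 3, 93 of day 6 and 56 of Oct4 lay within 1 kb of a protein-coding gene. A peak can be near both kinds of gene. The share of all peaks of each list that lie near an snRNA gene was not counted, so the difference between lists is a description only. The 114 snoRNA genes with an ESC Oct1 peak had a median percentile of 39.5, and the 29 tRNA genes one of 88.5. Gene types are those of the gene table, which types the U3 genes Rnu3b1, Rnu3b2, Rnu3b3 and Rnu3b4 as snRNA. A difference between snRNA and snoRNA genes therefore rests in part on how genes were typed. The 44 genes had 41 distinct strongest peaks in the ESC Oct1 list, and many snRNA genes are near-identical copies that can share reads, so these numbers do not count independent sites.

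The octamer ATGCAAAT was present in 6.19% of the 1566 promoter windows that overlapped an ESC Oct1 peak, in 3.58% of 3213 at day 3, in 1.44% of 7032 at day 6 and in 2.39% of 1214 that overlapped an ESC Oct4 peak, against 1.74% of all windows. A gene can have several windows, and the windows of different lists overlap.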
